A study of Mus musculus with 10 samples.

Results

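The nuclear-encoded genes of the mitochondrial respiratory chain and ATP synthase were followed in mouse aortas that lacked ApoE alone or both ApoE and IL-17. They were taken by symbol family: every gene with the Nduf, Sdha to Sdhd, Uqcr, Cox4 to Cox8 or Atp5 naming pattern and a probe set of its own, the one with the highest mean where a gene had several. This gave 85 of the 22180 genes measured. They comprised 34 genes of complex I, 8 assembly factors of complex I (Ndufaf genes, which the naming pattern brings in although they are not subunits), 4 of complex II, 7 of complex III, 15 of complex IV and 17 of ATP synthase. Cox7a1 and Cox8b, forms of complex IV subunits that brown fat and muscle make, were left out by the rule and served as markers. Members whose only probe set carries several gene symbols were not analysed here, such as Ndufs6, Ndufb2, Ndufb4, Cox6c and Uqcr10.

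RNA levels were read on Affymetrix Mouse Gene 2.0 ST arrays, 1 for each of 10 whole aortas. The first group held 5 male ApoE knockout mice and the second 5 male mice without ApoE and IL-17, called the double knockout. Both groups were on a C57BL/6 background, were put on high fat food at 8 weeks of age and kept on it for 3 weeks, a regimen meant to raise blood lipids early, and gave their aortas at 11 weeks. All 10 mice therefore lacked ApoE, the lipoprotein ligand that clears lipid particles from blood, and the comparison asks what the added loss of IL-17, a cytokine of T cells, goes with. Both deletions are in the germ line and thus in every cell type. The double knockout came from crossing IL-17-/- mice of another laboratory into ApoE-/-, whereas the labels of the ApoE knockout aortas speak of another set of mice, in which ApoE/caspase-1 and wild-type animals appear and IL-17 does not. No batch or scan date is given, so a batch and the genotype cannot be told apart. Neither is it given how much surrounding fat was left on the vessels. No array shows how its RNA divides among cells, so fewer cells of a type and less RNA per cell cannot be told apart.

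Values are log2 units per probe set. A level of one probe set says nothing about the level of another, so levels are compared only between aortas. Differences are double knockout minus ApoE knockout, and a gene is called when its adjusted p, from limma over all 22180 genes with Benjamini-Hochberg adjustment, is under 0.05. Over all genes 30.3% were called, 5050 higher (22.8%) and 1671 lower (7.53%). The median of all genes was 0.10 higher as deposited, 0.02 lower after quantile normalization (1982 genes higher and 2479 lower) and 0.11 lower after centring the arrays (1669 higher and 5641 lower), so small differences of either sign depend on the scale. Array medians ran from 5.76 to 5.80 in ApoE knockout and from 5.95 to 6.03 in double knockout aortas. Smooth muscle markers were high in all 10 aortas (mean level 10.72 to 11.31). The level of olfactory, vomeronasal and taste receptor genes, which an aorta should hardly express, had a 95th percentile of 5.78 and is used as the mark of a dim probe set. The Il17a probe set lay below that mark in both groups (4.20 to 4.54 and 4.48 to 4.94), so it could not check the label. The Apoe probe set, in mice that all lack the gene, read 6.07 to 6.47 and 6.83 to 7.26, above the dim mark in both groups, and was called higher in the double knockout (0.67, SE 0.10, adjusted p = 0.0011, limma). Red cell genes set the groups apart (list mean 9.05 to 9.87 in ApoE knockout, 6.82 to 7.44 in double knockout), and T cell markers had list means of 6.63 to 9.27 and 6.12 to 7.28. Called genes were 6 of 7 lower in the red cell list, 3 of 8 lower in the T cell list, 4 of 10 higher among smooth muscle and 4 of 9 higher among fibroblast markers, 2 of 10 lower among endothelial and 1 of 10 lower among macrophage markers. The part of these lists in the differences described here was not tested.

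The respiratory chain passes electrons from NADH (complex I) and succinate (complex II) through ubiquinone to complex III, then by cytochrome c to complex IV, where oxygen is reduced. Complexes I, III and IV pump protons across the inner mitochondrial membrane, and ATP synthase lets them back to make ATP. Most of the subunits are encoded in the nucleus, and many of these genes are known targets of the transcription factors NRF1 and GABP, the second of which binds an ETS motif. Brown adipocytes, which lie around the mouse aorta, are packed with mitochondria, whereas smooth muscle cells of the vessel wall hold fewer.

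Of the 85 respiratory chain genes, 15 were called lower in the double knockout, 1 was called higher and 69 were not called, which is 17.6% lower against 7.53% of all genes and few higher against 22.8%. The median difference was -0.18 against 0.10 over all genes, and 63 genes (74.1%) had a negative difference, called or not, against 36.1% of all genes. Without ApoE knockout replicate 1 the median was -0.091 and 55 genes were negative, and without any of the other 9 aortas the median lay between -0.21 and -0.16. The changes were small: 80 of 85 genes differed by less than 1.5-fold, and the range was -0.61 to 0.48. In 10 genes every double knockout aorta lay below every ApoE knockout aorta (background 4.8% of all genes), and in 1 gene every one lay above (background 15.6%). Among the brighter 60% of genes, where 11.2% were called lower, 14.5% higher and 48.8% were negative, 81 of the 85 remained, with 15 lower, 1 higher and a median of -0.19. Quantile normalization gave 13 lower and 1 higher, against 11.2% and 8.94% of all genes, and centring gave 48 lower and 0 higher, against 25.4% and 7.52%. Of the 16 calls, 10 held in each of the 10 fits that left out 1 aorta, and the number of genes called lower was 9 without ApoE knockout replicate 3 or without double knockout replicate 4.

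**Figure D1:**
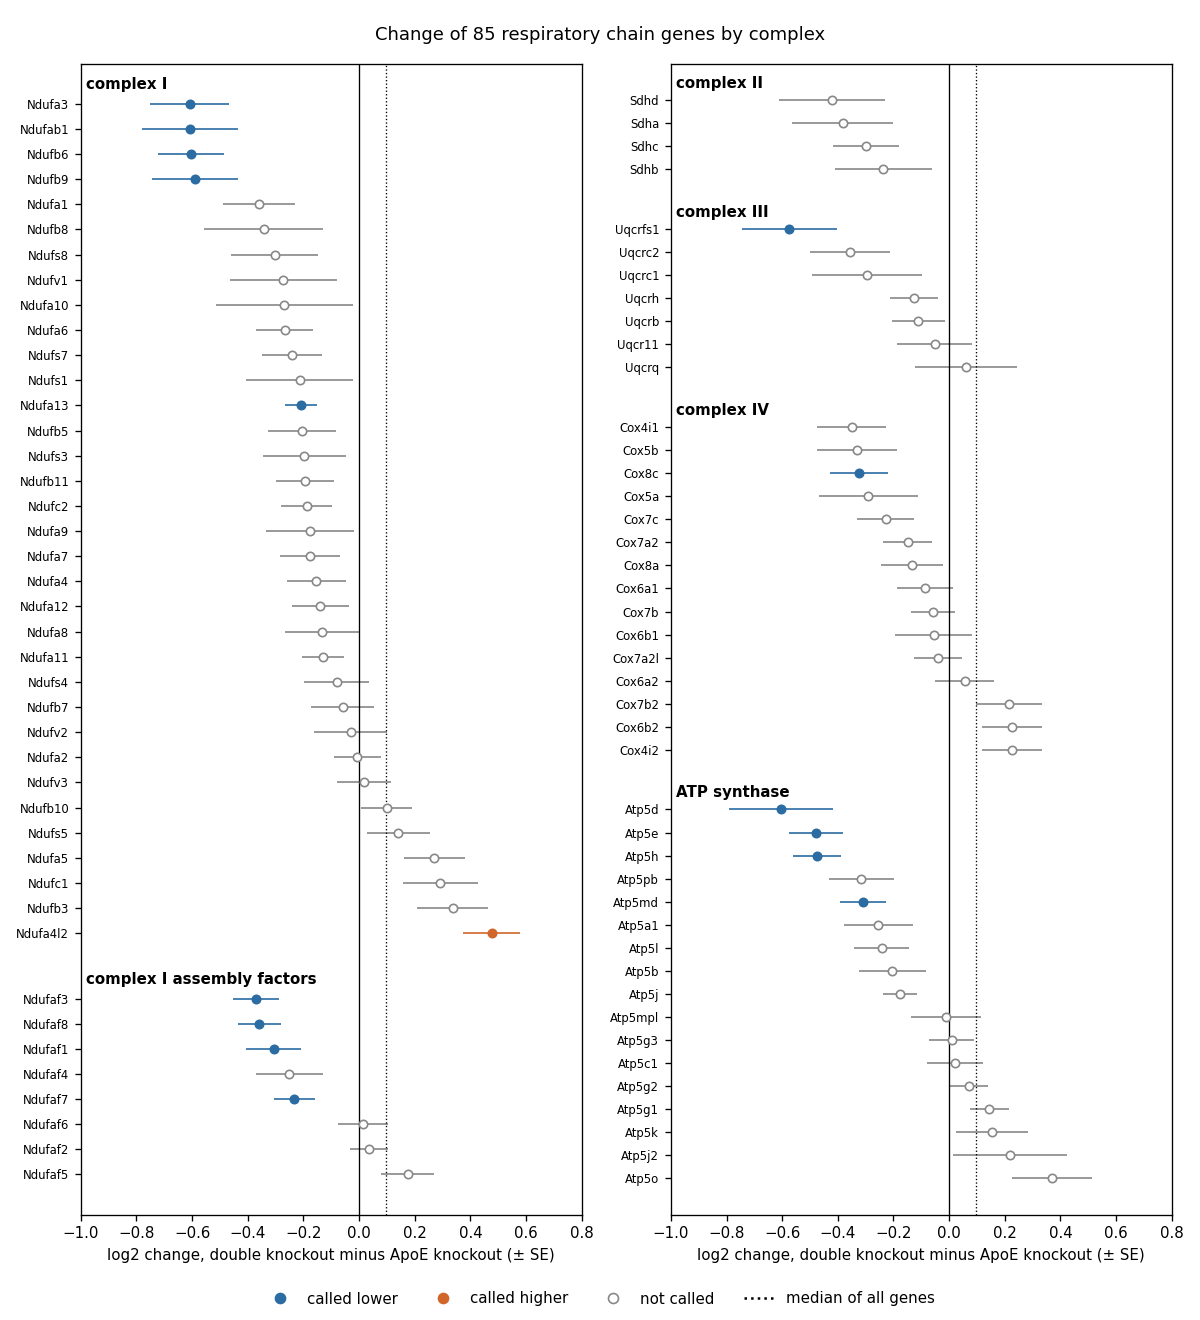
Difference between double knockout and ApoE knockout aortas (log2, horizontal) with its standard error for each of the 85 genes, grouped by complex; filled points were called lower (blue) or higher (orange), and the dotted line is the median of all genes. Most points lie left of 0, with the 1 higher call, Ndufa4l2, in complex I.

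Complex I, the entry point for NADH, had 5 of 34 genes called lower and 1 higher, with a median difference of -0.18 and 27 negative. The median was -0.084 without ApoE knockout replicate 1 and -0.39 with the arrays centred. The lower ones were accessory subunits, Ndufb6, Ndufa3, Ndufb9, Ndufa13 and Ndufab1. Ndufb6, of the membrane arm, read 9.80, 9.30, 9.49, 9.49 and 9.62 in the ApoE knockout replicates 1 to 5 and 8.79, 9.19, 9.14, 8.74 and 8.83 in those of the double knockout. The groups did not overlap, and the difference was -0.60 (SE 0.12, 1.52-fold, adjusted p = 0.0040, limma). Ndufa3, a small membrane-bound subunit, read 11.39, 11.31, 11.35, 11.22 and 11.58 against 10.65, 11.16, 11.02, 10.34 and 10.64. Again no aorta crossed over, although the double knockout spread further (SD 0.33 against 0.13), and the difference was -0.61 (SE 0.14, adjusted p = 0.0094, limma). Ndufb9, another membrane arm subunit, read 11.81, 11.19, 11.44, 11.44 and 10.94 against 10.79, 10.83, 11.09, 10.52 and 10.64. Here ApoE knockout replicate 5 lay within the double knockout range, and the difference was -0.59 (SE 0.15, adjusted p = 0.016, limma).

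Ndufa13, also known as GRIM-19, showed the tightest grouping, at 11.03, 10.93, 10.97, 11.02 and 10.90 against 10.76, 10.75, 10.77, 10.74 and 10.78. Its difference of -0.21 (SE 0.06, adjusted p = 0.019, limma) was the smallest of the lower calls, and after quantile normalization the adjusted p was 0.078. Ndufab1, the mitochondrial acyl carrier protein, averaged 7.18 ± 0.40 against 6.57 ± 0.18 (SD, n = 5 each, limma adjusted p = 0.022). Its call was lost without ApoE knockout replicate 3 or without double knockout replicate 4, with an adjusted p of up to 0.052 (limma).

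Ndufa4l2, a relative of Ndufa4 that is known to be induced by hypoxia and to be abundant in pericytes, went the other way. It read 7.13, 7.01, 7.06, 7.12 and 7.18 in ApoE knockout and 7.73, 7.46, 7.24, 7.76 and 7.69 in double knockout aortas. The groups did not overlap, and the difference was 0.48 (SE 0.10, 1.39-fold, adjusted p = 0.0062, limma). With the arrays centred on their medians it was 0.27, with an adjusted p of 0.059. Ndufa4 itself, which belongs to the same family by symbol but is now known as a subunit of complex IV, differed by -0.15 and was not called.

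The catalytic core of complex I was not called. Ndufs1, which carries iron-sulfur clusters, read 9.63, 8.65, 9.06, 8.93 and 8.44 against 8.77, 8.85, 8.97, 8.52 and 8.54 (difference -0.21, SE 0.19, limma adjusted p = 0.42). Ndufv1, which binds NADH, read 10.97, 9.99, 10.49, 10.33 and 9.90 against 10.29, 10.01, 10.35, 9.84 and 9.83 (difference -0.27, SE 0.19, limma adjusted p = 0.29). In both, ApoE knockout replicate 1 was the highest of the 10 and the other aortas of the groups mixed. The brightest probe set of the complex, that of the iron-sulfur subunit Ndufs7, read 12.60, 12.32, 12.50, 12.46 and 12.07 against 12.31, 12.02, 12.29, 12.12 and 12.00 (difference -0.24, limma adjusted p = 0.11). The dimmest, Ndufs5, lay at receptor level (5.27 to 5.71 and 5.33 to 5.79) and holds little information. The other genes not called ran from -0.36 (Ndufa1) to 0.34 (Ndufb3).

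The assembly factors of complex I, which help to build it and are not part of the finished enzyme, had 4 of 8 called lower, with a median difference of -0.24 (-0.45 with the arrays centred). Ndufaf8 read 8.22, 7.99, 8.08, 8.02 and 8.00 against 7.73, 7.68, 7.70, 7.54 and 7.86 (difference -0.36, SE 0.08, limma adjusted p = 0.0062). Ndufaf3 read 9.15, 8.88, 9.09, 8.97 and 9.25 against 8.74, 8.81, 8.73, 8.59 and 8.61 (difference -0.37, SE 0.08, limma adjusted p = 0.0080). Neither gene's groups overlapped, and both calls held without any single aorta. Ndufaf7, a methyltransferase, read 7.70, 7.47, 7.70, 7.50 and 7.59 against 7.38, 7.45, 7.35, 7.36 and 7.24 (difference -0.23, limma adjusted p = 0.033). Ndufaf1 read 8.25, 7.82, 8.10, 7.77 and 7.96 against 7.63, 7.72, 7.76, 7.49 and 7.76 (difference -0.31, limma adjusted p = 0.038). The last 2 differences are nearer the spread, and each call was lost in 6 of the 10 fits without 1 aorta, so the count of 4 dropped to 2 without ApoE knockout replicates 1, 3 or 5 or double knockout replicates 3 or 4. Ndufaf4 differed by -0.25 and was not called. Ndufaf2, Ndufaf5 and Ndufaf6 lay between 0.01 and 0.17 as deposited and turned negative with the arrays centred. Ndufaf5, the dimmest of them, read 5.94, 5.78, 5.78, 5.81 and 5.60 against 5.75, 5.89, 6.19, 5.89 and 6.06.

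**Figure D2:**
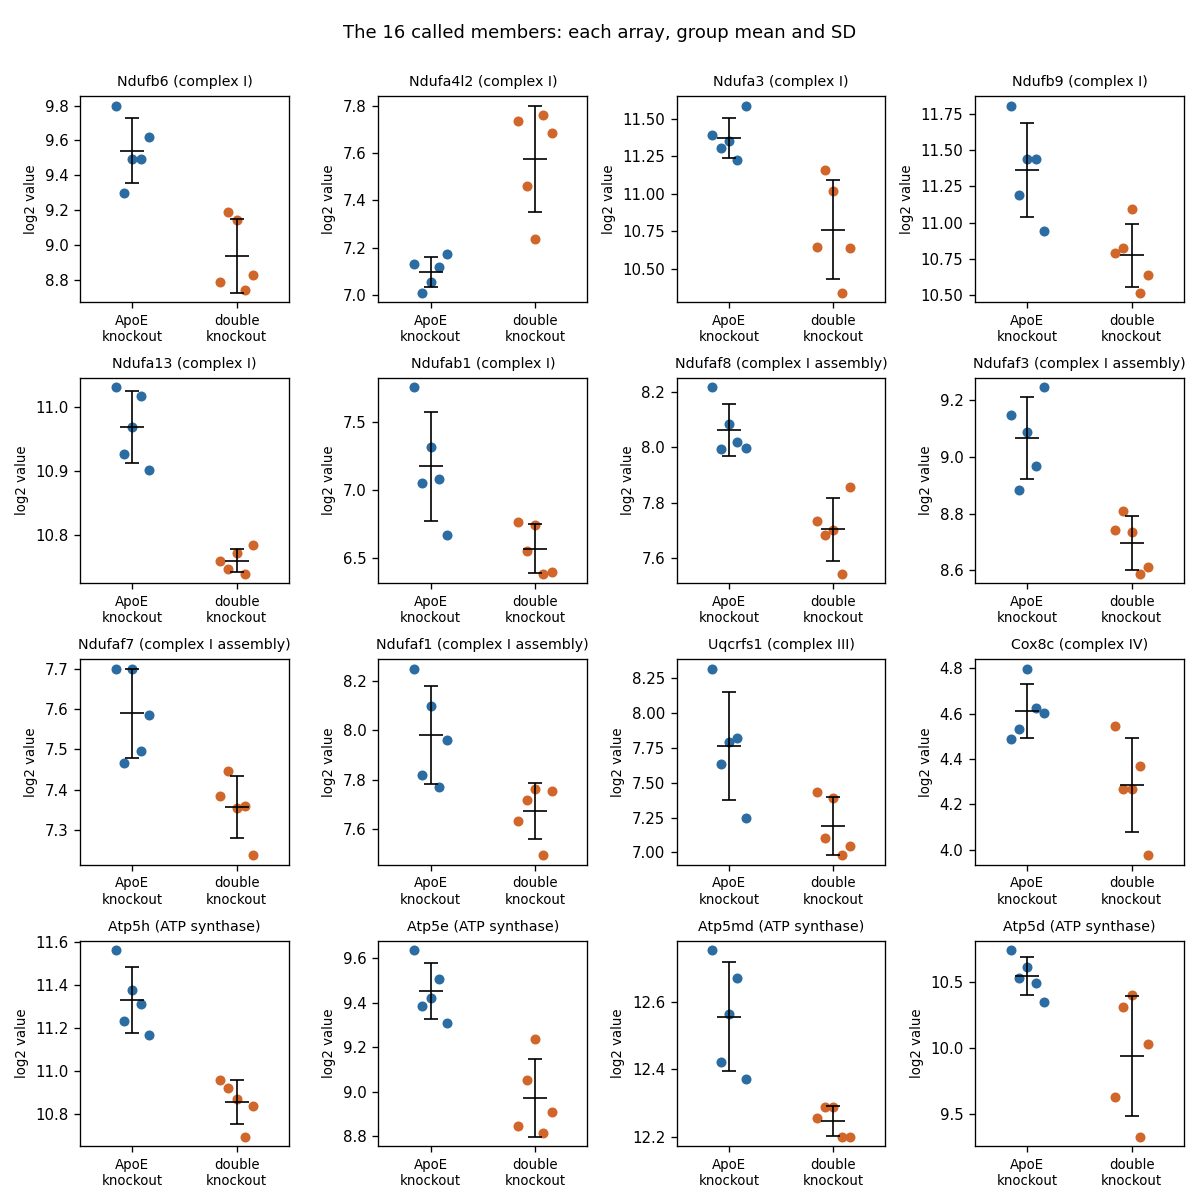
Log2 value of each of the 10 aortas (points) with group mean and SD (bars) for the 16 genes called in either direction, a panel per gene. In 11 of the panels the groups do not overlap, 10 with the double knockout below and Ndufa4l2 with it above.

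In complex II, which oxidizes succinate and is shared with the citric acid cycle, 0 of 4 genes were called by limma (2 at an unadjusted p under 0.05), although all 4 were negative and their median was -0.34 (-0.22 without ApoE knockout replicate 1 and -0.54 with the arrays centred). Sdha, the flavoprotein, read 11.61, 10.78, 11.18, 11.08 and 10.61 against 10.96, 10.54, 10.94, 10.43 and 10.48 (difference -0.38, SE 0.18, limma adjusted p = 0.13). Sdhb, the iron-sulfur subunit, read 10.10, 9.50, 9.66, 9.80 and 9.09 against 9.68, 9.32, 9.61, 9.15 and 9.20 (difference -0.24, limma adjusted p = 0.32). The membrane anchors Sdhc and Sdhd differed by -0.30 and -0.42 (limma adjusted p = 0.078 and 0.11). The spread between ApoE knockout aortas was wide, about 1 log2 unit from replicate 1 to replicate 5 in Sdha, Sdhb and Sdhd, and the groups overlapped in each.

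In complex III, which hands electrons from ubiquinol to cytochrome c, 1 of 7 genes was called, with a median difference of -0.13 (-0.058 without ApoE knockout replicate 1 and -0.33 with the arrays centred). This was Uqcrfs1, the Rieske iron-sulfur protein, at 8.32, 7.64, 7.79, 7.82 and 7.25 against 7.43, 7.11, 7.39, 6.98 and 7.05. ApoE knockout replicate 5 overlapped the double knockout, and the difference was -0.57 (SE 0.17, adjusted p = 0.027, limma). The call was lost without ApoE knockout replicates 3 or 4 or double knockout replicates 4 or 5, with an adjusted p of up to 0.064 (limma). The core protein Uqcrc1 read 11.30, 10.41, 10.82, 10.70 and 10.19 against 10.63, 10.23, 10.75, 10.10 and 10.23 (difference -0.30, limma adjusted p = 0.27), and its partner Uqcrc2 differed by -0.36 (limma adjusted p = 0.081). Uqcrb, the brightest, read 11.81 to 12.38 and 11.86 to 11.99, and Uqcrq, the dimmest, 6.62 to 7.58 and 6.78 to 7.49. Neither showed a difference beyond its spread (-0.11 and 0.06).

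Complex IV, cytochrome c oxidase, had 1 of 15 genes called and a median difference of -0.09. That median ran from -0.036 without ApoE knockout replicate 1 to -0.16 without replicate 5, was -0.050 and -0.055 without double knockout replicates 4 and 5 and -0.14 without replicate 3, and was -0.29 with the arrays centred. The called gene was Cox8c, a form known from testis, at 4.49, 4.53, 4.80, 4.63 and 4.60 against 4.55, 4.27, 4.27, 4.37 and 3.97. Both group means lay at the level of receptor genes, and the call (difference -0.32, adjusted p = 0.036, limma) was lost in 8 of the 10 fits without 1 aorta, those without replicates 2 to 5 of either group. Of the main subunits, Cox4i1, which regulates the enzyme, read 10.74, 10.27, 10.52, 10.50 and 10.25 against 10.29, 10.02, 10.38, 9.88 and 9.94 (difference -0.35, SE 0.12, limma adjusted p = 0.051). Cox5a read 9.55, 8.70, 9.07, 8.95 and 8.51 against 8.93, 8.58, 8.86, 8.42 and 8.53 (difference -0.29, limma adjusted p = 0.23). Cox6a1, the brightest, read 12.49 to 12.87 and 12.36 to 12.77 (difference -0.09).

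Among the members, the tissue-restricted forms of complex IV subunits, apart from Cox8c, had positive differences as deposited and were not called. Cox7a1 and Cox8b, the restricted forms left out by the rule, went the other way (-0.59 and -0.52) and were not called either. Cox4i2, a form of Cox4 known from lung and responsive to oxygen, read 7.39, 7.40, 7.46, 7.42 and 7.56 against 7.82, 7.60, 7.31, 7.96 and 7.65 (difference 0.23, limma adjusted p = 0.13). Double knockout replicate 3 was the lowest of all 10 and the other 4 were above every ApoE knockout aorta. Cox6b2, a form known from testis, read 6.47, 6.37, 6.42, 6.50 and 6.32 against 6.79, 6.73, 6.22, 6.80 and 6.64 (difference 0.22, limma adjusted p = 0.13), and replicate 3 of the double knockout was again the lowest. Both differences depended on the scale. Quantile normalization gave 0.19 for Cox4i2 and 0.078 for Cox6b2, and centring gave 0.021 and 0.020. Cox7b2 was below receptor level, at 3.25 to 3.67 and 3.50 to 4.04, and its difference turned to -0.048 after quantile normalization. Cox6a2, of heart and skeletal muscle, read 6.15, 6.31, 6.34, 6.27 and 6.25 against 6.22, 6.70, 6.18, 6.37 and 6.13, a difference of 0.06 that turned to -0.12 after quantile normalization and to -0.15 after centring. Cardiac muscle markers had 7 of 12 genes called higher (list mean 6.10 to 6.56 and 6.65 to 7.21), with 1 at receptor level, and skeletal muscle markers 1 of 12, with 4 at receptor level. Of all genes 22.8% were called higher. The part of these muscle markers in the muscle forms was not tested.

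ATP synthase had 4 of 17 genes called lower, with a median difference of -0.18 (-0.11 without ApoE knockout replicate 1, -0.38 with the arrays centred and -0.087 with the mean of all probe sets of a gene). Atp5h, subunit d of the peripheral stalk, read 11.56, 11.23, 11.38, 11.31 and 11.17 against 10.96, 10.92, 10.87, 10.69 and 10.84. The groups stood apart, and the difference was -0.47 (SE 0.09, 1.39-fold, adjusted p = 0.0029, limma), the smallest adjusted p of the 85 genes. A second, much dimmer Atp5h probe set went the other way (6.34 ± 0.20 against 6.64 ± 0.17, SD, n = 5 each), and the mean of both was not called (limma adjusted p = 0.47). Atp5e, the epsilon subunit of the central stalk, read 9.64, 9.39, 9.42, 9.51 and 9.31 against 8.85, 9.05, 9.24, 8.81 and 8.91. The difference was -0.48 (SE 0.10, adjusted p = 0.0045, limma), and its second probe set differed by -0.17. Atp5md, a small membrane subunit known as DAPIT, read 12.75, 12.42, 12.57, 12.67 and 12.37 against 12.26, 12.29, 12.29, 12.20 and 12.20. No aorta crossed over, and the difference was -0.31 (SE 0.08, adjusted p = 0.016, limma).

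Atp5d, the delta subunit of the central stalk, read 10.74, 10.53, 10.61, 10.49 and 10.35 against 9.63, 10.31, 10.40, 9.32 and 10.03. Double knockout replicates 1 and 4 were far below the rest, and the difference of -0.61 (SE 0.19, adjusted p = 0.030, limma) lost its call without either of them or without ApoE knockout replicates 1, 2, 3 or 4, with an adjusted p of up to 0.070. Its second probe set differed by -0.41. The catalytic subunits were not called. Atp5a1 read 11.37, 10.81, 11.09, 10.99 and 10.79 against 10.89, 10.72, 10.98, 10.54 and 10.64 (difference -0.25, limma adjusted p = 0.14), and Atp5b, which holds the active site, read 13.01, 12.47, 12.70, 12.66 and 12.37 against 12.44, 12.50, 12.65, 12.29 and 12.31 (difference -0.20, limma adjusted p = 0.21). In the other direction, Atp5o, a subunit of the peripheral stalk, differed by 0.37 (limma adjusted p = 0.073). Atp5j2 was below receptor level in mean and scattered (5.09 to 5.49 and 5.02 to 6.08), and the 3 genes of the c-ring, Atp5g1, Atp5g2 and Atp5g3, lay between 0.01 and 0.14 as deposited. Centring the arrays lowers every difference equally and takes Atp5j2 from 0.22 to 0.013, so the c-ring genes turn negative.

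A second pattern ran within both groups. ApoE knockout replicate 1 was the highest of its group in 69 of 85 genes (24.1% of all genes), and replicate 2 or 5 the lowest in 74 (41.7%). In the double knockout, replicate 1 or 3 was the highest in 61 (46.6%) and replicate 4 or 5 the lowest in 64 (37.6%). The mean of 9 brown adipocyte markers was likewise highest in replicate 1 and lowest in replicates 2 and 5 of the first group, and highest in replicates 1 and 3 and lowest in 4 and 5 of the second, at 10.28, 9.16, 9.74, 9.57 and 8.16 in ApoE knockout and 9.46, 9.02, 9.64, 8.61 and 8.48 in double knockout aortas. Ucp1, the uncoupling protein that defines brown fat, read 12.85, 11.68, 12.37, 12.15 and 10.23 against 12.02, 11.39, 12.32, 11.11 and 10.89. Ucp1 was thus far above receptor level in every aorta, and the groups overlapped in it and in the marker mean. Of the 9, Dio2 was called higher (0.62, limma adjusted p = 0.013), 0 were called lower, 1 was at receptor level, and the median difference was -0.41. Dio2 and the dim Zic1 did not follow the order of the mean. Both were highest in ApoE knockout replicate 5, and neither had a called slope on the marker mean (limma adjusted p = 0.95 and 0.98). The other 7 had a positive slope, on a mean of which each is a part. A further list of adipocyte markers had 0 of 8 called by limma (1 at an unadjusted p under 0.05) and a median of -0.50. Its list means were 8.84 to 10.32 and 8.63 to 9.70. These markers moved with the brown adipocyte markers across aortas, with a positive slope on that marker mean in 5 of 8 (median 0.76). Lep, Retn and Plin4 had no called slope (limma adjusted p = 0.14, 0.16 and 0.77). Whether the list reads white or brown adipocytes was not tested. Cox7a1 and Cox8b are among the brown adipocyte markers, with 11.28 ± 1.11 against 10.68 ± 0.55 and 12.11 ± 0.80 against 11.58 ± 0.55 (SD, n = 5 each, limma adjusted p = 0.35 and 0.29).

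**Figure D3:**
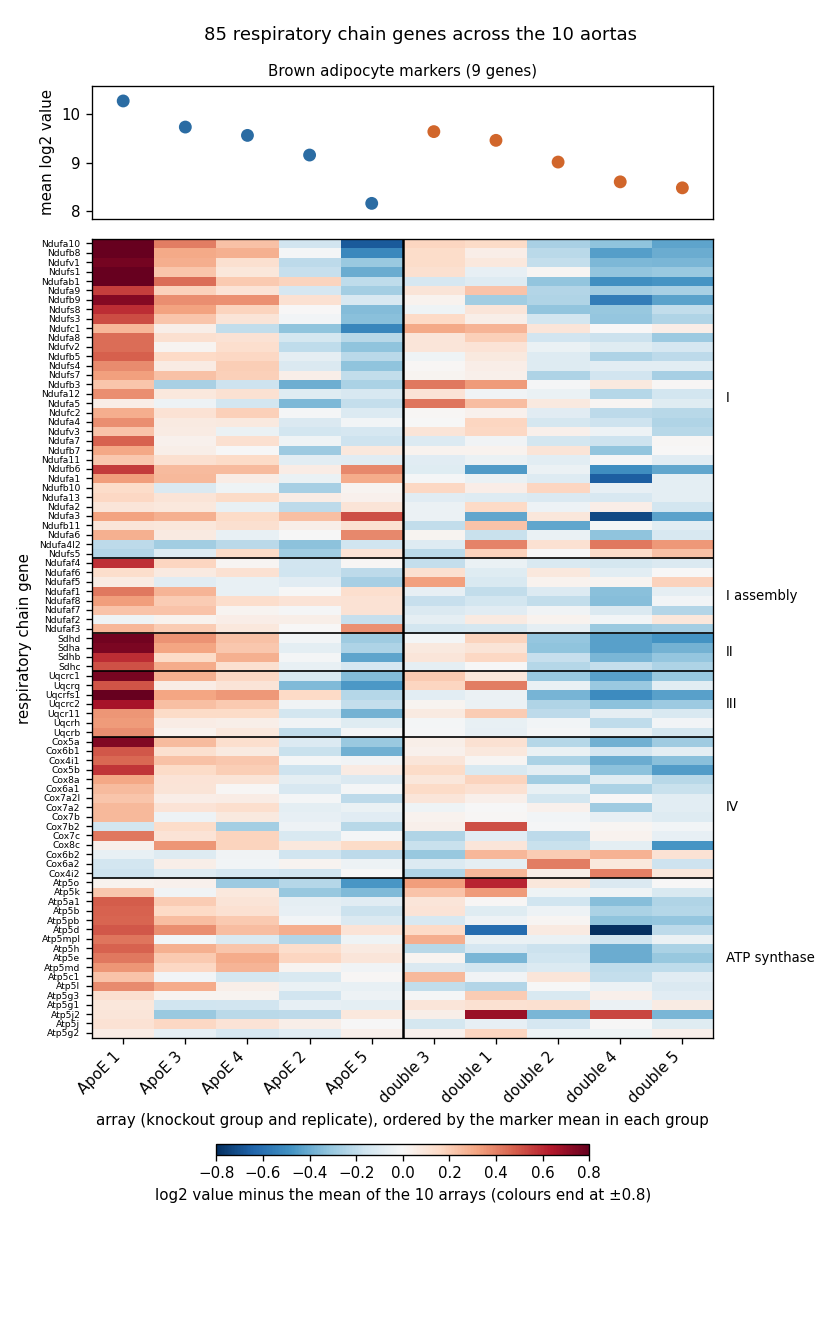
Each row is a respiratory chain gene, grouped by complex and sorted within it by its slope on the markers, and colour is the log2 value minus the gene's mean over the 10 aortas. Columns are aortas, ordered within each group by the mean log2 value of the brown adipocyte markers plotted on top (blue ApoE knockout, orange double knockout). Colours run from red to blue along this order in complexes I, II and III.

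Fitted beside genotype over all genes, the marker mean had a positive slope at an adjusted p under 0.05 in 25 of 85 respiratory chain genes, against 1.4% of all genes, and a negative slope in 0, also at an unadjusted p, against 0.117% (limma). The slope is the log2 rise per log2 unit of the marker mean. Its median was 0.19 in the 85 genes and near 0 over all genes. The count rests in part on the aortas at the ends of the marker range: it was 8 without ApoE knockout replicate 1 (0.613% of all genes), 14 without replicate 5 (0.911%) and 17 to 21 without any of the other 8, while the median slope was 0.15, 0.29 and 0.17 to 0.19. The complexes differed in how many genes had it: 14 of 34 in complex I, 3 of 4 in complex II, 5 of 7 in complex III, 2 of 15 in complex IV, 1 of 17 in ATP synthase and 0 of 8 assembly factors (1 at an unadjusted p under 0.05). Median slopes ran from 0.46 in complex II and 0.36 in complex III to 0.22 in complex I, 0.16 in ATP synthase, 0.15 in complex IV and 0.08 in the assembly factors. The steepest genes were Ndufa10, an accessory subunit (0.67, adjusted p = 0.00044, limma), and Ndufb8, of the membrane arm (0.58, adjusted p = 0.00040, limma). Ndufa10 read 11.37, 10.36, 10.93, 10.75 and 9.85 against 10.67, 10.26, 10.69, 10.20 and 10.10, which is the order of the markers in both groups, and its difference between the groups was not called (limma adjusted p = 0.42). Within each group alone, a slope was computed for the mean level of a list, which is not a median over genes. It was 0.21 in ApoE knockout and 0.20 in double knockout aortas for the 85 genes. In complex II it was 0.43 and 0.40, and in the assembly factors 0.11 and 0.04. The difference between complexes in these slopes was not tested, and the 10 aortas share the marker values across all genes. The marker mean itself includes Cox7a1 and Cox8b, forms of complex IV subunits, and Ppargc1a, a regulator of mitochondrial biogenesis. No mean without them was fitted, so how far the slopes rest on these genes was not tested.

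**Figure D4:**
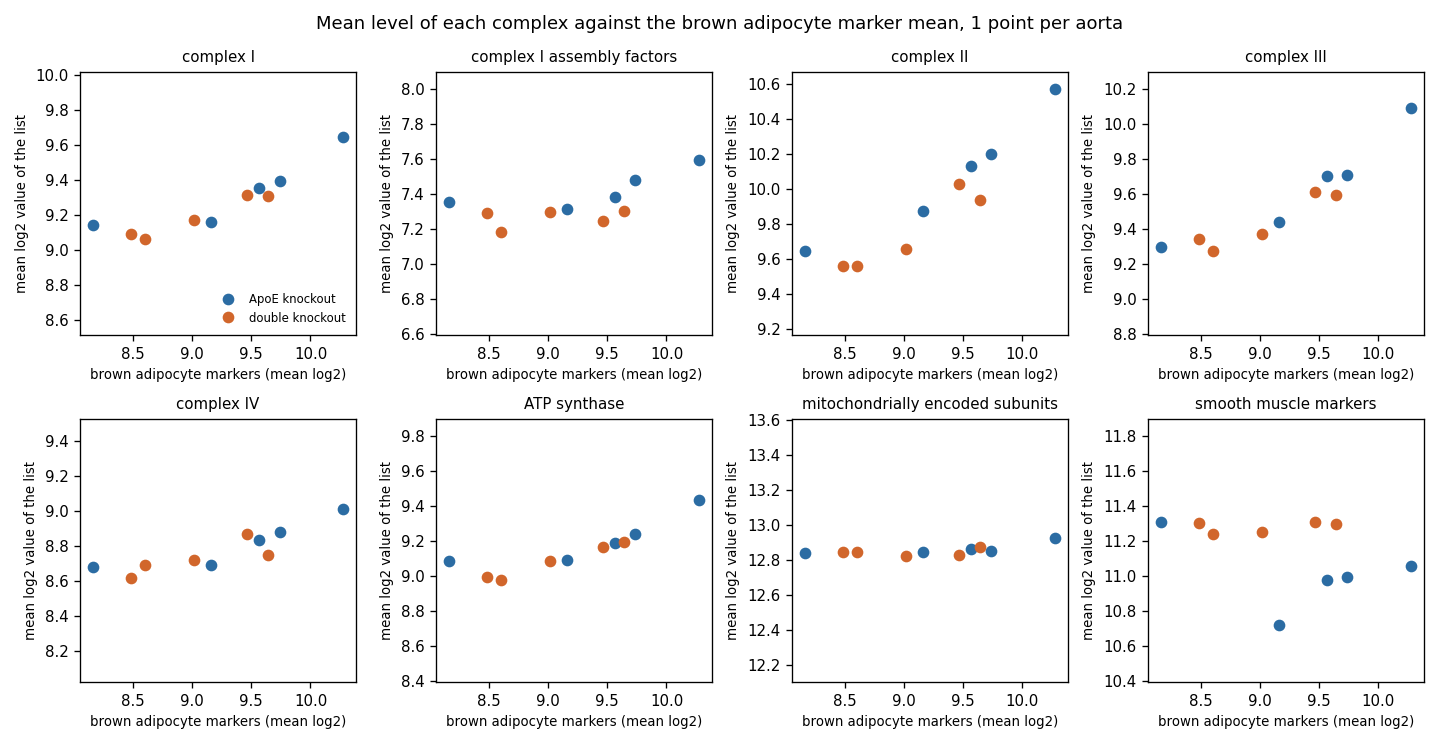
Mean log2 value of the genes of each complex, of the mitochondrially encoded subunits and of smooth muscle markers (vertical) against the mean log2 value of the brown adipocyte markers (horizontal), 1 point per aorta, coloured by group. Complex II runs from 9.64 to 10.57 in ApoE knockout aortas along the marker mean, and the mitochondrially encoded subunits from 12.84 to 12.92.

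Of the 25 genes with a called slope, 22 were not called between the groups, near the share among the members (69 of 85). Of the 15 called lower, 3 had a called slope, against 25 of 85, namely Ndufb9 (0.39), Ndufab1 (0.44) and Uqcrfs1 (0.44). With the marker mean in the model, 11 of the 15 were still called lower, among them Ndufb6 at -0.57, Ndufa3 at -0.60, Atp5h at -0.42 and Atp5e at -0.43, and Ndufa4l2 was still higher at 0.44. Ndufaf1, Ndufaf7, Cox8c and Atp5d were no longer called (limma adjusted p = 0.062, 0.053, 0.058 and 0.050). A further 4 genes were called lower, which were Sdhd (-0.25), Uqcrc2 (-0.24), Cox4i1 (-0.25) and Atp5pb (-0.23). And 5 more were called higher, which were Ndufa5 (0.34), Ndufb3 (0.42), Ndufc1 (0.40), Atp5k (0.26) and Atp5o (0.48). The totals in this fit were 15 lower and 6 higher, against 8.39% and 22.2% of all genes, and the median difference was -0.09. The count of higher genes thus depended on whether the marker mean was in the model, and without ApoE knockout replicate 5 this fit called 6 lower and 5 higher.

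The promoters of the members were searched for the cores of both factors' motifs, as a description of sequence that the members share. RefSeq promoters (assembly GRCm38.p6, 250 bases before to 50 after the start) were at hand for 70 of the 85 genes, in 75 windows. The NRF1 core, GCGCA and GCGC with any base between them, on either strand, was in 18 of the 75 windows (24.0%), against 4.6% of all promoters and 6.38% of those of protein-coding genes. The ETS core bound by GABP, CCGGAAG on either strand, was in 19 (25.3%), against 8.86% and 11.6%. Both were present in 4 genes and at least 1 in 32. Of the 13 genes called lower that had a window, 6 held the ETS core and 1 the NRF1 core. Ndufa3, Ndufa13 and Ndufaf3, called lower in every fit without 1 aorta, held neither core. Neither did Ndufa10 and Ndufb8, the steepest genes on the marker mean. Windows are shown only for genes with a match, so they are not typical of the members. Those of the complex II genes Sdha and Sdhd were taken because these 2 genes were among the steepest and were not called between the groups. Those of Atp5h, Atp5e and Ndufaf8 were taken because they were called lower in every fit without 1 aorta. Each is printed 5′ to 3′ on the gene's strand and ends at the base before the start, with matches in capitals.
Sdha (chr13:74350241-74350360, - strand): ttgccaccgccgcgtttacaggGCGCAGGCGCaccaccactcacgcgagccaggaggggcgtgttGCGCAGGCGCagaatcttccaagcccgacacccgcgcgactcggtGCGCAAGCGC
Sdhd (chr9:50603850-50604009, - strand): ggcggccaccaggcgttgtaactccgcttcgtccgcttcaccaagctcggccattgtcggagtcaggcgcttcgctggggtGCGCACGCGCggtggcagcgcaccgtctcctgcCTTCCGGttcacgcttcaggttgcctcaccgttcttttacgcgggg
Atp5h (chr11:115419920-115420079, - strand): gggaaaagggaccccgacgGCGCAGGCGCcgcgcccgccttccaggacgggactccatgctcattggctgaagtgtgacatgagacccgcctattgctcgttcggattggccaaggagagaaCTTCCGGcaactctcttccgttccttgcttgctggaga
Atp5e (chr2:174464102-174464221, - strand): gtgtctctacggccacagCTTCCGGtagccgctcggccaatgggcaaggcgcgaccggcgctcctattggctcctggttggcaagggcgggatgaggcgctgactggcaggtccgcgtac
Ndufaf8 (chr11:120098854-120098933, + strand): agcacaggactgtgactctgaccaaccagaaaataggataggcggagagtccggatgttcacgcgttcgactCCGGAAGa
Sdha holds 3 NRF1 cores, which begin 98, 55 and 10 bases before the start, and Sdhd 1 NRF1 and 1 ETS core, at 79 and 46. Atp5h likewise holds 1 of each, at 141 and 38, while Atp5e and Ndufaf8 hold 1 ETS core, at 102 and 8. CTTCCGG is the ETS core read on the opposite strand. A match of letters is not a bound site.

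Genes of the same pathways outside the member rule were read from the same fit. The mitochondrially encoded subunits, made from the organelle's own DNA, gave no call: 0 of 10 measured were called by limma in either direction, and 0 at an unadjusted p under 0.05, their differences ran from -0.06 (ND3) to 0.02 (ND5), and their list mean was 12.84 to 12.92 and 12.82 to 12.87. Most of them lie near the top of the scale, whose highest value was 13.80, and whether differences are compressed there was not tested. ND6 lay further down, at 9.09 to 9.32 and 9.07 to 9.31. It differed by -0.04 (limma adjusted p = 0.73) and had no called slope on the markers (limma adjusted p = 0.77). COX2, ATP6 and ATP8 were not among the 10 measured. Electron carriers and entry dehydrogenases had 0 of 7 called by limma, also 0 at an unadjusted p under 0.05, and a median of -0.39, with Cyc1, the cytochrome c1 of complex III, at -0.49 (limma adjusted p = 0.14), and 6 of 7 had a positive slope on the markers. In pyruvate dehydrogenase and the citric acid cycle 1 of 17 was called lower, with a median of -0.33 and positive slopes in 15. That gene was Suclg2, of the GTP-forming succinyl-CoA ligase (-0.36, SE 0.08, adjusted p = 0.0074, limma), which had none (slope 0.06).

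Assembly factors of all complexes outside the rule had 6 of 37 called lower and 2 higher, with a median of -0.15. The lower ones included Surf1, which helps to build complex IV and is mutated in Leigh syndrome (-0.35, adjusted p = 0.0081, limma), and the higher ones were Tmem186, a complex I factor (0.68, SE 0.06, adjusted p = 6.7e-05, limma), and Cox16 (0.29, adjusted p = 0.014, limma). Mitochondrial ribosomal proteins, which translate the organelle's messages, had 16 of 68 called lower and 2 higher, with a median of -0.14. Mrpl14 (-0.51, adjusted p = 0.00088) and Mrpl57 (-0.52, adjusted p = 0.0023) were lower and Mrpl40 was higher (0.42, adjusted p = 0.0030, limma). Of 16 regulators of mitochondrial biogenesis and DNA, 2 were lower. They were Tfam (-0.36, SE 0.08, adjusted p = 0.0087, limma) and Tfb1m (-0.24, adjusted p = 0.025, limma). Tfb2m and Polrmt, of the same list, were not called (-0.37 and -0.11, limma adjusted p = 0.058 and 0.30). Of all genes 7.53% were called lower and 22.8% higher, and without the dimmest 40% of genes 11.2% and 14.5%. Whether the counts in these lists differ from those shares was not tested. In the ribosomal list 1 of 68 genes followed the brown adipocyte markers and in the assembly list 1 of 37.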

How the data were processed

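Each of 10 aortas gave total RNA for 1 Affymetrix Mouse Gene 2.0 ST array, per the labels. The authors deposited 1 log2 value per probe set and array. Base 2 was inferred from their range. Background correction, normalization and genome build were not given in the sources used here. Per the submitters' processing notes limma was among the tools. No depth applies to arrays, and 5 aortas per group limit the precision.

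Of 41345 probe sets, 23521 had 1 platform symbol, 1814 had several and 16010 are unnamed here. One probe set per gene, that with the highest mean, left 22180 genes. All 85 members carry a current RefSeq symbol (GRCm38.p6), and 9 had several probe sets. The naming pattern matched 89 symbols, of which Cox7a1, Cox8b and the pseudogenes were left out. Groups came from the sample titles, which call the samples biological replicates. The test was limma 3.58.1 (lmFit, then eBayes, in R 4.3.3), group only, two-sided, with Benjamini-Hochberg adjustment over all genes at 0.05. On simulated data with 200 changed of 22180 genes, 88% of changes of 1 log2 unit and 100% of changes of 2 were recovered, with 12 false calls. Smaller changes, such as those of the members (-0.61 to 0.48), were not simulated, so how many of that size would be missed is not known.

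Replicate numbers are shared by the groups, and the correlations of same-numbered deviations ran from -0.13 to 0.26. Differently numbered samples were not compared, so these values cannot decide whether the samples are paired. The main fit treats them as unpaired. Alternatives were quantile normalization, centring, leaving out the dimmest 40% of genes, the mean of probe sets, eBayes with trend and robust, the replicate block and leaving out each aorta. The brown adipocyte covariate, also without each aorta, was added after seeing the data. The members, the lists and these choices were made with earlier results of these data known.

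Values per aorta are printed for up to 4 called genes per complex in each direction, the brightest and dimmest gene, restricted isoforms and core subunits, and up to 3 called genes are named in each other list. Beyond this, Ndufab1, Ndufa10, Ndufb8, Sdhc, Sdhd, Uqcrc2, Atp5o and others were named after their values were seen. Probe sets with several symbols were not analysed here. Figures were drawn with matplotlib 3.10.9.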

Additional observations from a re-analysis of the deposited data

Results flagged for a closer look

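Among 84 groups of 5 aortas tested for a single aorta far from the rest, 2 were picked out, which is fewer than the 1 in 20 that chance alone picks out. In Cox6b2, double knockout replicate 3 was at 6.22 while the other 4 lay between 6.64 and 6.80. In Cox7b2, whose probe set is dimmer than most receptor genes, double knockout replicate 1 was at 4.04 while the other 4 lay between 3.50 and 3.57.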

How the results depend on the processing

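With the arrays centred on their medians, 48 members were called lower and 0 higher, 1669 of all genes higher and 5641 lower, with 17, 3, 4, 10 and 9 members called in complexes I, II, III, IV and ATP synthase and medians of -0.39 in complex I, -0.45 in its assembly factors, -0.29 in complex IV and -0.38 in ATP synthase. Quantile normalization gave 1982 of all genes higher. Without the dimmest 40%, 1935 of all genes were higher and 0 were called in complex IV. With trend and robust, 2 members were higher and 2 were called in complex IV. With the replicate block, 4 members were higher and 20 lower, with 3 called in complex II and 2 in complex III. With the brown adipocyte covariate, 6 were higher, with 2 called among the assembly factors, 1 in complex II and 2 in complex III. The cause of these moves was not tested.

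Leaving out 1 aorta at a time gave 3935 to 5097 of all genes higher and 1121 to 1925 lower, and 1 to 3 members higher and 9 to 21 lower. Called members ran from 5 to 9 in complex I, 2 to 4 in the assembly factors, 0 to 2 in complexes II and III, 0 to 3 in complex IV and 3 to 6 in ATP synthase. Medians ran from -0.22 to -0.08, -0.29 to -0.17, -0.43 to -0.22, -0.17 to -0.06, -0.16 to -0.04 and -0.20 to -0.11 in complex I, assembly factors, II, III, IV and ATP synthase.

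Signs were compared for 35 named genes and turned only in some that were not called. Centring lowers every difference equally, so small positive differences of other genes, such as those of the c-ring, turned negative as well. After quantile normalization Atp5j2 was at -0.019, Cox6a2 -0.12, Cox7b2 -0.048, Ndufaf5 -0.031, Ndufs5 -0.095 and Uqcrq -0.022, and after centring Cox6a2 -0.15, Ndufaf5 -0.030, Ndufs5 -0.063 and Uqcrq -0.14. Over the fits without 1 aorta, Uqcrq ran from -0.047 to 0.19, negative without ApoE knockout replicate 2 or 5 or double knockout replicate 1, and Cox6a2 from -0.039 to 0.10, negative without double knockout replicate 2. Probe sets near receptor level, such as those of Cox8c, Cox7b2, Ndufs5 and Atp5j2, limit what can be read for these genes.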
